A study of Homo sapiens with 15 samples.

Results

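GAL3ST1, VIL1, CCL5, CPNE7, MAP3K19, CMKLR2, NMRK2, SPMAP1 and ACOX2 are 9 genes, of 14432 in the gene table of the series, that held many PHC1 PAR-CLIP clusters while their nuclear RNA and their RNAPII 4SU PAR-CLIP signal were low. They were listed by name for that pattern, with no numeric threshold given, so their PHC1, RNAPII and RNA levels are a description and carry no test. PAR-CLIP crosslinks RNA that has taken up a photoreactive nucleoside to the protein that holds it, and a cluster is a stretch of genome covered by the recovered reads. The cells throughout were HEK293T T-Rex, a human embryonic kidney line built for tetracycline-controlled transgenes. The 2 PHC1 PAR-CLIP libraries came from cells with a PHC1 transgene, grown in hygromycin and with 100 uM 4-SU, and the complex was taken up on streptavidin beads. The 2 RNAPII libraries, 1 with 4-SU (4SU) and 1 with 6-SG (6SG), each at 100 uM, came from cells listed with no transgene and were taken up with an antibody. All 4 PAR-CLIP libraries were crosslinked at 365 nm with the same listed dose. The 2 total nuclear RNA libraries came from nuclei of crosslinked cells, listed with no transgene and no treatment. ChIP-seq was read at transcription start sites (TSS). It had 2 libraries of transgenic PHC1 and 2 of transgenic PHC1-dFCS, both on streptavidin beads, and a single library each of H3K4me3, H3K27me3, EZH2, RNAPII and input DNA from cells with no transgene. PHC1 PAR-CLIP thus differs from RNAPII PAR-CLIP in transgene and purification as well as in protein, and these cannot be told apart.

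PHC1 is a subunit of Polycomb repressive complex 1 (PRC1), which compacts and marks chromatin of silent genes together with PRC2, the complex of the H3K27 methyltransferase EZH2. PRC1 and PRC2 are known to contact RNA, and RNA held by a chromatin protein can be a nascent transcript still attached to its gene. The 9 genes are mostly known from other tissues than kidney-derived cells: CCL5 is a chemokine of T cells, VIL1 encodes villin of the gut brush border, NMRK2 is a nicotinamide riboside kinase of striated muscle, ACOX2 is a peroxisomal oxidase of bile acid synthesis in liver, GAL3ST1 makes the sulfatide of myelin and kidney, and SPMAP1 is named as a sperm microtubule protein. CMKLR2 is a receptor of the chemoattractant chemerin, MAP3K19 is a kinase upstream of MAP kinases, and CPNE7 belongs to the copines, which bind membranes in a calcium-dependent way.

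The PHC1 libraries held 696186 and 698056 clusters, the RNAPII 4SU library 667937 and the RNAPII 6SG library 45259, so that a gene without a 6SG cluster says little. The nuclear RNA libraries held 47187882 and 49626658 reads in genes. Levels are per-million values, the RNA reads of a gene (or, for PAR-CLIP, the summed read coverage of its clusters) scaled to the library. In nuclear RNA the HEK293 genes PAX2, LHX1, NEFL, INA and XRCC5 were all detected, at 3.56 to 909 per-million units. The tissue lists that follow include CCL5, VIL1, NMRK2, ACOX2, SPMAP1 and GAL3ST1 themselves, listed for little RNA. Their sums thus restate that choice in part, and ACOX2 alone gave 1.04 and 1.41 per-million units of the liver sums. Of T and NK cell genes, GZMB was at 0 in both RNA libraries and the whole list of 5 summed to 0.405 and 0.623 per-million units. Sums were 23.2 and 23.4 for gut epithelium (of which CDX2 20.6 and 21.0), 1.85 and 1.38 for 4 measured of 5 striated muscle genes, 1.64 and 2.29 for 5 liver genes, 0.792 and 0.555 for 2 measured of 4 testis genes, and 27.3 and 26.2 for 3 measured of 4 myelin and kidney genes (of which MBP 26.8 and 25.6).

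All 9 genes held clusters in both PHC1 libraries, 296 clusters in replicate 1 and 311 in replicate 2, whereas 5 of the 9 held any cluster in the RNAPII 4SU library and 2 of the 9 in the 6SG library. Folds are log2 of PHC1 over the other libraries after adding 1 to each per-million value. Among the signalling genes, CCL5 (Entrez 6352, chr17:34198496-34207377, hg19) had 46 and 50 PHC1 clusters worth 227 and 222 per-million units, against 3 clusters worth 5.13 in RNAPII 4SU, none in 6SG, and 8 and 11 reads in nuclear RNA. Both PHC1 libraries lay above every other library, and the RNA of this chemokine was among the scarcest of the 9. CMKLR2 (Entrez 2825, chr2:207040042-207082771) had 32 and 30 PHC1 clusters worth 48.4 and 54.4 per-million units, no 4SU cluster, 1 cluster worth 9.82 in 6SG, and 64 and 86 RNA reads. MAP3K19 (Entrez 80122, chr2:135722273-135805038), the longest of the 9 at 82.8 kb, had 55 and 57 PHC1 clusters worth 91.8 and 109 per-million units, 1 cluster of 12 bases worth 0.907 in 4SU, 3 clusters worth 102 in 6SG, and 38 and 51 RNA reads. MAP3K19 was thus as high in the shallow 6SG library as in PHC1, while it was near 0 in the 4SU library.

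Among the enzymes, GAL3ST1 (Entrez 9514, chr22:30950624-30968817) had the most PHC1 clusters of the 9, 66 and 64, worth 288 and 312 per-million units, with no RNAPII cluster of either kind and 31 and 36 RNA reads. NMRK2 (Entrez 27231, chr19:3933101-3942414) had 16 clusters in each PHC1 library, worth 46.0 and 48.4 per-million units, no RNAPII cluster, and 18 and 15 RNA reads. ACOX2 (Entrez 8309, chr3:58490863-58522929) had 17 clusters in each, worth 40.1 and 47.5 per-million units, no RNAPII cluster, and 59 and 84 RNA reads. In these 3 genes the PHC1 replicates lay close together, and the lower of them was far above the RNAPII libraries, which list nothing there.

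Among the structural and membrane genes, VIL1 (Entrez 7429, chr2:219283838-219314248) had 31 and 29 PHC1 clusters worth 99.1 and 106 per-million units, 1 cluster worth 0.709 in 4SU, none in 6SG, and 108 and 97 RNA reads, the most of the 9. SPMAP1 (Entrez 388381, chr17:36991341-36997642), the shortest of the 9 at 6.30 kb, had 22 and 26 clusters worth 94.6 and 114 per-million units, 2 clusters worth 1.52 in 4SU, none in 6SG, and 6 and 10 RNA reads. CPNE7 (Entrez 27132, chr16:89642176-89663654) had 11 and 22 clusters worth 427 and 137 per-million units, 3 clusters worth 2.12 in 4SU, none in 6SG, and 12 and 18 RNA reads. The 2 PHC1 libraries disagreed on CPNE7 more than on any other of the 9. A single cluster of 1988 bases (chr16:89645779-89647766) held 91.8% of its coverage in replicate 1, or 391.6 per-million units. The same stretch held 80.9% in replicate 2, or 111 per-million units, there divided over 9 clusters. Without PHC1 replicate 1 the log2 fold of CPNE7 over nuclear RNA was 6.78, and without replicate 2 it was 8.41. With the largest cluster of each gene left out it was 5.94, against 7.60 with all clusters.

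**Figure D1:**
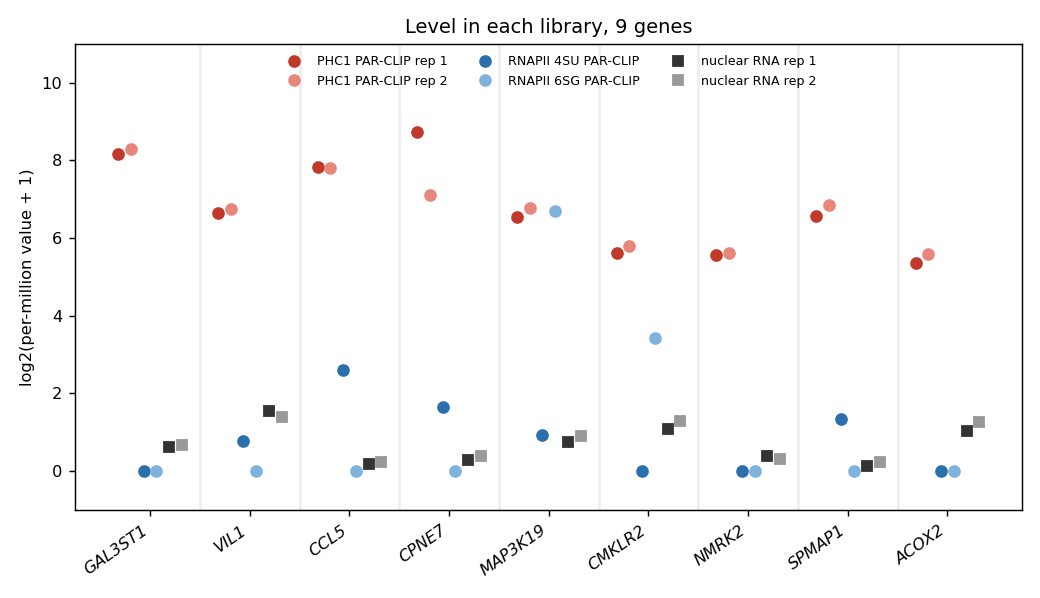
Per-million values of the 9 genes in each library, as log2 of the value plus 1. Red points are the 2 PHC1 PAR-CLIP libraries, blue points the RNAPII 4SU and 6SG libraries and squares the 2 nuclear RNA libraries. The PHC1 points lie above all others except at MAP3K19, where the 6SG library reached 102 per-million units.

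The log2 fold of PHC1 over nuclear RNA ran from 4.33 ± 0.192 for ACOX2 to 7.60 ± 0.595 for CPNE7 (SE, n = 2 each), with a median of 5.84 over the 9, against -0.17 over all 9354 genes that were high enough to be tested. In that fit, limma called 38.7% of all tested genes higher and 43.7% lower in PHC1. CCL5 was higher by 7.60 ± 0.137, GAL3ST1 by 7.58 ± 0.130 and SPMAP1 by 6.53 ± 0.178, all as descriptions. All 9 passed the low-value filter, and each passed it through the 2 PHC1 libraries in which it had been chosen as high. In a bulk sample, fewer cells that express a gene and less RNA of it per cell cannot be told apart. Over RNAPII 4SU, 5 of the 9 had a value above 0 in both, and their log2 folds ran from 5.20 ± 0.268 for CCL5 to 6.28 ± 1.26 for CPNE7 (SE, 2 PHC1 libraries and 1 RNAPII library), with a median of 5.73. GAL3ST1, CMKLR2, NMRK2 and ACOX2 were listed at 0 in the 4SU library and are given no fold. The median over all 8237 genes tested against RNAPII 4SU was 0.04, with 33.7% called higher and 27.8% lower in PHC1. These contrasts chose the 9 genes, and nothing is read from their place in them.

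Most of the 9 genes carried their PHC1 clusters on the strand opposite to the gene. In VIL1, CCL5, MAP3K19, CMKLR2, NMRK2 and ACOX2, 6 of the 9, most PHC1 coverage in both libraries lay on the opposite strand, and in GAL3ST1, CPNE7 and SPMAP1 most lay on the gene's own strand. Strand was not used to choose the genes. CCL5 and NMRK2 had 0 clusters on their own strand in either PHC1 library. MAP3K19 had 0.926% and 0.802% of its PHC1 coverage on its own strand, from 1 cluster in each library. ACOX2 had 0% and 3.15%, VIL1 10.5% and 8.21%, and CMKLR2 9.41% and 7.28%. By contrast, GAL3ST1 had 97.9% and 97.8% on its own strand, CPNE7 99.7% and 100%, and SPMAP1 95.5% and 100%. No gene of the 9 had a mixed signal, since the largest minor share was that of VIL1.

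Opposite-strand clusters were uncommon among genes in general but not among genes with equally little RNA. Of 4609 genes with a RefSeq strand and at least 10 clusters in each PHC1 library, 239 (5.19%) had most PHC1 coverage on the opposite strand. Of the 54 among them with RNA counts no higher than those of the 9 genes, 21 (38.9%) did, some of the 9 included. The strand was that of the RefSeq promoter table for 5 of the 9, and background knowledge for VIL1 and CPNE7 (plus strand) and for CCL5 and ACOX2 (minus strand). Counted on the gene's own strand alone, an alternative chosen after seeing the data, the median log2 fold over nuclear RNA was 1.20 in place of 5.84. It was -0.22 for CCL5, -0.36 for NMRK2 and -0.49 for ACOX2, and it stayed at 7.55 for GAL3ST1, 7.59 for CPNE7 and 6.49 for SPMAP1. The RNA library kit keeps strand, but whether the deposited RNA counts used it is not given in the sources used here, so RNA from either strand of these genes may be in the counts.

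**Figure D2:**
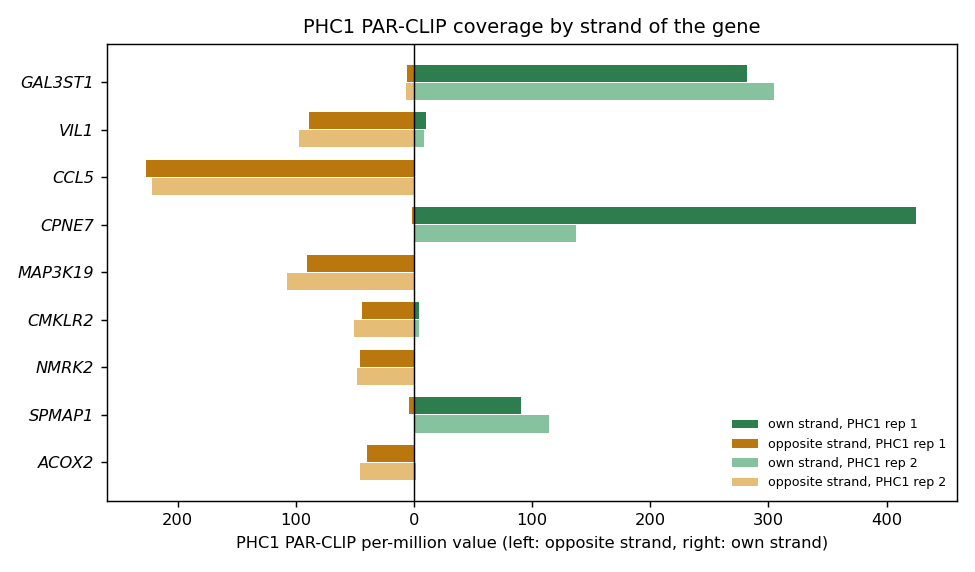
PHC1 PAR-CLIP per-million values of the 9 genes, split by strand. Bars to the right lie on the gene's own strand and bars to the left on the opposite strand, with dark bars for replicate 1 and pale bars for replicate 2. 6 genes have nearly all of their value on the left, among them CCL5 with 227 and 222, and 3 have it on the right.

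Except in CPNE7, no single cluster held most of a gene's PHC1 coverage. The largest single cluster held 8.41% to 28.5% of a gene's PHC1 coverage in replicate 1 for the 8 genes other than CPNE7, and 5.57% to 28.0% over all 9 in replicate 2. The clusters did not fill the genes evenly, and the widest gap between cluster midpoints on the main strand was 12.0 and 18.9 kb in MAP3K19, 6.51 and 11.8 kb in VIL1, 8.13 and 7.92 kb in ACOX2 and 7.46 and 7.11 kb in CMKLR2. Mean coverage over the clusters ran from 16.0 to 61.0 reads in replicate 1 and from 14.6 to 37.2 in replicate 2. Per kb of gene and on the strand of its clusters, CCL5 was highest at 25.5 and 24.9 per-million units per kb in the 2 PHC1 libraries. CPNE7 (19.8 and 6.39), GAL3ST1 (15.5 and 16.8) and SPMAP1 (14.3 and 18.1) followed, and their ranges over the 2 libraries overlapped. NMRK2 (4.94 and 5.20) and VIL1 (2.92 and 3.20) stood apart from each other and from the rest. ACOX2 (1.25 and 1.43), MAP3K19 (1.10 and 1.30) and CMKLR2 (1.03 and 1.18) were lowest, and the range of MAP3K19 overlapped those of the other two, which did not overlap each other. In clusters per kb CCL5 (5.18 and 5.63), GAL3ST1 (3.63 and 3.52) and SPMAP1 (3.49 and 4.13) led, while CPNE7 had 0.512 and 1.02, fewer than NMRK2 with 1.72 in both.

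Clusters recurred at the same bases. Of the 296 clusters in replicate 1, 219 (74.0%) overlapped a same-strand cluster of replicate 2 by 1 base or more, and of the 311 in replicate 2, 239 (76.8%) overlapped one of replicate 1. For all PHC1 clusters these shares were 66.4% and 70.2%. Recurrence was lowest in CMKLR2, at 56.2% and 53.3%, and reached 88.5% of the replicate 2 clusters in SPMAP1. Only 2.03% and 2.57% of the clusters in the 9 genes met a cluster of the RNAPII 4SU library, against 28.8% and 27.7% of all PHC1 clusters, a contrast that the choice of the genes fixed. The largest recurrent site of CCL5 lay on the plus strand at chr17:34204214-34204421 in replicate 1 and chr17:34204266-34204307 in replicate 2, at a mean coverage of 106 and 233. That of SPMAP1 lay on the minus strand at chr17:36994142-36994428 and chr17:36994153-36994203, at a mean coverage of 33.6 and 152. In ACOX2 and CMKLR2 the largest recurrent cluster had the same borders in both libraries, chr3:58494966-58495016 and chr2:207073601-207073651, both on the plus strand. Positions are as in the deposited files, and exon and intron borders were not used here.

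On the strand of the clusters, 6 of the 9 genes lay within 50 kb downstream of a gene of the table that is transcribed towards them. These were PES1 (3.80 kb before GAL3ST1), which acts in ribosome biogenesis, USP37 (0.726 kb before VIL1), a deubiquitinase, TAF15 (24.2 kb before CCL5), an RNA-binding protein, SPG7 (18.0 kb before CPNE7), a mitochondrial protease, CCNT2 (5.36 kb before MAP3K19), a cyclin of the elongation factor P-TEFb, and KCTD6 (2.78 kb before ACOX2), a cullin adaptor. Each had ample nuclear RNA, from 1406 and 1432 reads for KCTD6 to 11940 and 12024 for PES1 and 11266 and 12779 for TAF15, where the gene after it had at most 108. Of the 5619 genes with at least 10 clusters in each PHC1 library, 1942 (34.6%) had such a gene before them, and of the 258 among them with most coverage on the opposite strand, 156 (60.5%) did. For the other 3 the RefSeq gene order (GRCh38.p14, used for order alone) gives EEF1B2 next to CMKLR2 and DAPK3 and then EEF2 next to NMRK2, all on the strand of the clusters, and RPL23 next to SPMAP1, with no strand in the tables used. In that order HEATR9 lies between TAF15 and CCL5, and RPL13, on the strand of the clusters, between SPG7 and CPNE7. EEF1B2, DAPK3, EEF2, RPL23 and RPL13 are not in the gene table, so they carry no RNA count here.

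In 7 of the 9 genes the first clusters were part of a longer run that began before the gene. No share over all genes is set beside this count, so it describes these genes only. A run here starts from the first cluster in the gene and takes in clusters on that strand in both directions as long as neighbouring midpoints are at most 5 kb apart, and values are given for replicates 1 and 2. The run through CCL5 was 126.5 kb long, began 62.0 kb before the gene and ended 55.6 kb past it in both libraries. NMRK2 lay whole in runs of 55.6 and 58.1 kb, and SPMAP1 in runs of 98.6 and 43.2 kb, with the split past the gene. Other runs broke off inside the gene. The run into MAP3K19 was 81.0 kb in both libraries, began 45.8 kb before the gene, beyond the border of CCNT2, and took in 46 of 54 and 52 of 56 of its clusters on that strand, ending 47.6 kb short of the gene's far end. In VIL1 the runs of 47.4 and 35.6 kb took in 28 of 29 and 25 of 27 clusters and ended 8.28 and 20.1 kb short of the far end, and in ACOX2 the runs of 24.8 and 18.1 kb took in 14 of 17 and 9 of 16. GAL3ST1 lay in runs of 34.4 and 33.8 kb that began 16.4 kb before it and stopped 0.2545 and 0.759 kb before its end, with no further cluster on that strand for 16.6 and 6.19 kb. The runs of CPNE7 and CMKLR2 began inside the gene, with no cluster on that strand for 6.80 and 8.48 kb and for 5.15 and 5.94 kb before their first one.

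The density of PHC1 coverage did not fall everywhere from the 20 kb before the gene to the gene itself. These 20 kb need not reach the gene before: TAF15 ends 24.25 kb before CCL5, and SPG7 18.0 kb before CPNE7. GAL3ST1 had 15.5 and 16.8 per-million units per kb against 5.79 and 3.59 in the 20 kb before it, a stretch that takes in part of PES1, and 0.0614 and 0.173 in the 20 kb past it. VIL1 had 2.92 and 3.20 against 1.95 and 2.17 before it, and ACOX2 1.25 and 1.43 against 0.281 and 0.280. In CCL5 the density was level, with 25.5 and 24.9 against 23.9 and 26.8 before it. NMRK2 had 4.94 and 5.20 against 12.8 and 11.6, MAP3K19 1.10 and 1.30 against 8.80 and 6.96, and CMKLR2 1.03 and 1.18 against 6.17 and 7.02. SPMAP1 had 14.3 and 18.1 against 19.8 and 20.4, and CPNE7, whose replicates disagreed, 19.8 and 6.39 against 14.8 and 10.2. In RNAPII 4SU, GAL3ST1 itself held 0 per-million units per kb and the 20 kb before it 7.86, and likewise MAP3K19 held 0 against 10.2 before it, CMKLR2 0 against 5.35, NMRK2 0 against 1.37 and ACOX2 0 against 1.07, each on the strand of the PHC1 clusters. The 4SU library thus had clusters before each of these 5 genes and none in them on that strand. The absence inside them restates the choice of the genes for little 4SU signal. Whether the clusters in the 9 genes come from RNA that starts at the gene before was not tested, since the clusters do not link one end of an RNA to the other.

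**Figure D3:**
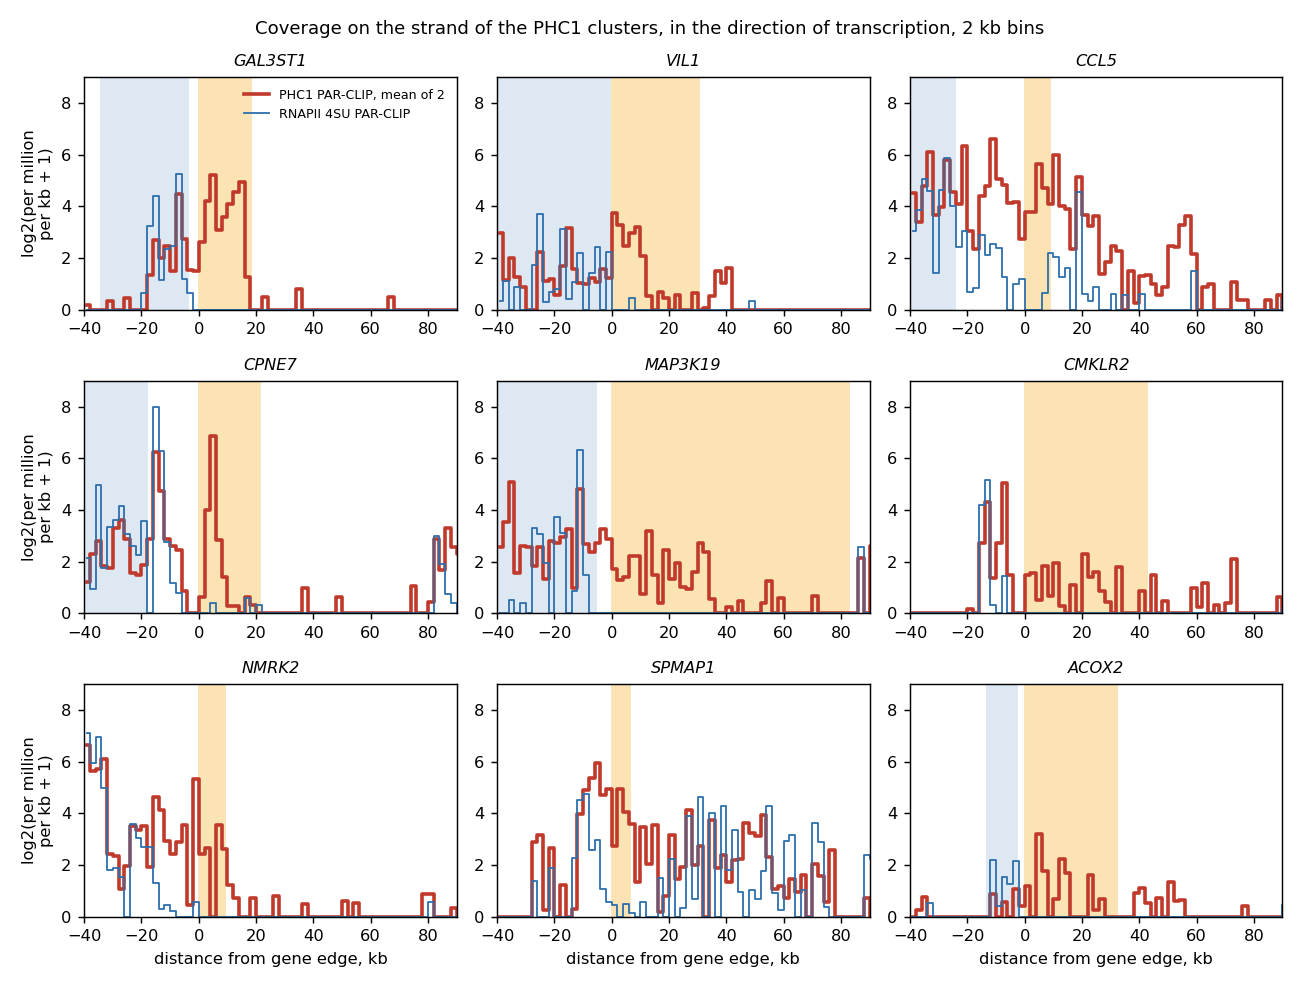
Coverage on the strand of the PHC1 clusters around each of the 9 genes, in 2 kb bins, as log2 of the per-million value per kb plus 1, against distance from the gene's edge in kb in the direction of transcription on that strand. Red is the mean of the 2 PHC1 PAR-CLIP libraries, blue the RNAPII 4SU library, the yellow band the gene and the pale blue band the gene of the table before it. The red line is above 0 in part of every yellow band, with empty stretches in VIL1, MAP3K19 and ACOX2 among others, and the blue line is at or near 0 there in most panels.

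The 6 genes before the 9 were therefore measured over their own length and over the 50 kb past their end. PES1 had 292 and 312 per-million units of PHC1 past its end, 73.0% and 81.9% of its gene plus 50 kb, against 0.571 per-million units or 0.363% in RNAPII 4SU. KCTD6 had 88.9% and 92.8% past its end in PHC1 against 0% in 4SU, CCNT2 29.4% and 31.8% against 0%, USP37 21.1% and 25.1% against 2.54%, and TAF15 46.4% and 54.0% against 16.0%. At SPG7 the PHC1 shares of 55.5% and 34.8% lay on both sides of the 4SU share of 50.4%. RPL13, on the same strand, lies between SPG7 and CPNE7, so its clusters count as past the end of SPG7 in each library. Over 3182 genes with at least 10 clusters in these libraries the median share past the end was 8.24% and 8.39% in PHC1 and 3.66% in RNAPII 4SU, and in 1852 of them (58.2%) both PHC1 libraries were above the 4SU library. The zone past these 6 genes holds the genes chosen for a high PHC1 and a low 4SU signal. In replicate 1, GAL3ST1 itself gave 282 of the 292 per-million units past PES1, and ACOX2 40.1 of 44.9 past KCTD6. VIL1 gave 29 of the 34 clusters past USP37, while CCL5 gave 227 of 1160 per-million units past TAF15. The high shares of PES1, KCTD6 and USP37 are thus mostly a restatement of the choice, and those of CCNT2 and TAF15 at least in part.

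**Figure D4:**
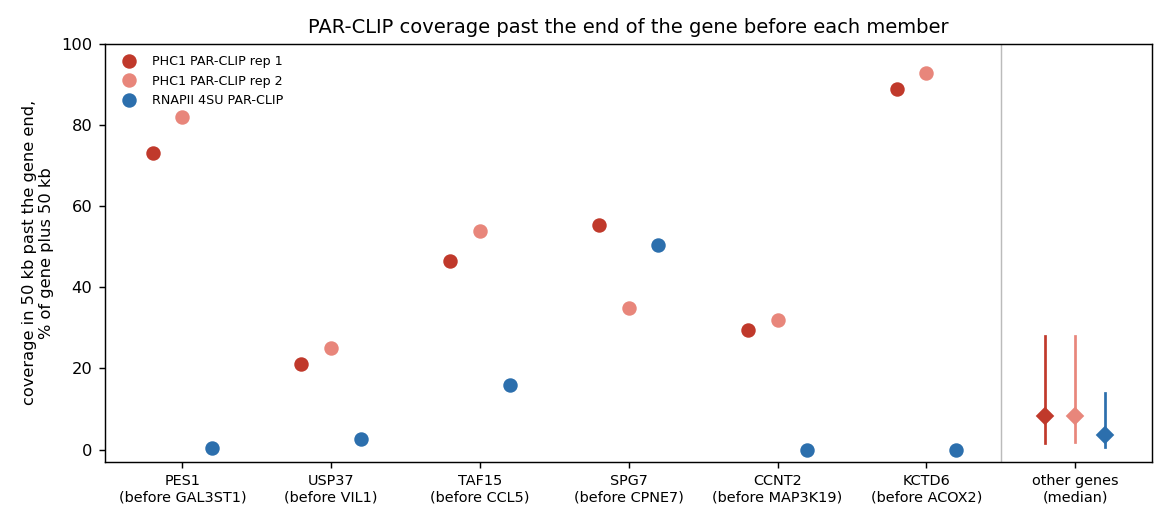
Share of the PAR-CLIP coverage of a gene plus the 50 kb past its end that lay past its end, in percent, for the 6 genes before GAL3ST1, VIL1, CCL5, CPNE7, MAP3K19 and ACOX2. Red points are the 2 PHC1 libraries and blue points the RNAPII 4SU library, and diamonds with bars are medians and quartiles over 3182 genes. Both PHC1 points lie above the blue point in all but SPG7, where the zone past the end also holds RPL13.

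The genes around the 9 were chosen by position and not by their own values, and a test was run on them. That position is next to genes chosen on this same contrast, so the test is not independent of the choice. The run through CCL5, from 62.0 kb before the gene to 55.6 kb past it, reaches HEATR9, TAF15 and RDM1. The calls of these genes may share that run and are not independent of each other. Clusters on either strand were counted, and HEATR9 and RDM1 have no orientation here, so their values are not shown to be of their own RNA. The test sets 2 PHC1 libraries against a single RNAPII 4SU library, assumed to vary like the PHC1 pair. With both RNAPII libraries as the control or with no low-value filter, limma called none of the genes around the 9. Of the 20 genes of the table within 50 kb, 14 were high enough, and limma called 5 of the 14 higher in PHC1 than in RNAPII 4SU and 2 lower, where 33.7% and 27.8% of all tested genes were. Their median log2 fold was 0.27. HEATR9, between TAF15 and CCL5, had 429 and 489 per-million units in PHC1 against 42.6 in RNAPII 4SU, a log2 fold of 3.40 ± 0.200 (limma adjusted p = 1.01e-21). ATCAY, next to NMRK2 on the far side, had 9.50 and 13.4 per-million units in PHC1 and was listed at 0 in 4SU. It is among the 5, but it passed the low-value filter through the 2 PHC1 libraries alone, so its call is given no weight. RDM1, past CCL5, was higher by 1.80 ± 0.271 (limma adjusted p = 8.28e-08), TAF15 by 0.75 ± 0.150 (limma adjusted p = 2.16e-05) and USP37 by 0.71 ± 0.187 (limma adjusted p = 0.000892).

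PES1 had 108 and 69.0 per-million units in PHC1 and 157 in RNAPII 4SU, a log2 fold of -0.85 ± 0.251 (limma adjusted p = 0.00395), and KCTD6 had 5.62 and 4.31 against 21.5, a log2 fold of -1.92 ± 0.523 (limma adjusted p = 0.00128). Both directions turned under an alternative, PES1 to 0.37 with the number of clusters and KCTD6 to 0.32 with both RNAPII libraries and 2.57 with 6SG alone. CCNT2 (0.27 ± 0.188), SPG7 (-0.11 ± 0.162), RAB3GAP1 (0.27 ± 0.188), NDUFS1 (0.44 ± 0.219), CWC25 (-0.38 ± 0.220), LASP1 (0.02 ± 0.373) and 1 gene farther off did not pass the threshold. SEC14L6, SLC11A1, DPEP1 and FAM107A, nearest neighbours on 1 side, were too low to be tested, with 0.503 to 5.53 per-million units in PHC1 for all untested neighbours.

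At their start sites the 9 genes lay below the all-gene median in RNAPII and H3K4me3. They were listed for little nuclear RNA, and genes with equally little RNA were not set beside them here. ChIP scores are the authors' values, reads at the TSS per 10M library reads minus the same for input. Most rest on few reads, so single scores are loose. The input reads of a gene, from 11 in NMRK2 to 30 in SPMAP1, shift its scores for all targets alike. For RNAPII the 9 scores ran from -1.44 in CMKLR2 to 4.54 in NMRK2, and 0 of the 9 exceeded the median of all genes, 4.70. CMKLR2 had 18 RNAPII reads against 27 input reads, and NMRK2 24 against 11. NMRK2 (49.4th percentile of all genes) and GAL3ST1 (47.1st) lay close to that median. For H3K4me3, the mark of active promoters, they ran from -2.39 in SPMAP1 to 11.6 in NMRK2, and 0 of the 9 exceeded the median of 28.5. NMRK2 was the only one of the 9 with clearly more H3K4me3 reads than input reads, 62 against 11. The other 8 had 15 to 29 H3K4me3 reads, against 12 to 30 input reads.

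Polycomb values at these start sites were mixed. The scores of H3K27me3, the PRC2 mark, ran from -3.02 in CMKLR2 to 1.34 in NMRK2. CMKLR2 had 17 H3K27me3 reads and NMRK2 18, against 27 and 11 input reads, so their scores differ mainly through the subtracted input. In all, 7 of the 9 exceeded the median of all genes, -1.37, although 2 of the 9, NMRK2 and CCL5, were above 0. The EZH2 scores ran from -2.21 in SPMAP1 to 3.85 in NMRK2, with 5 of the 9 above the median of -0.02. In the authors' pooled column, PHC1 itself ran from -3.29 in SPMAP1 to 3.00 in GAL3ST1, with 5 of the 9 above the median of 0.0668. GAL3ST1 (97.4th percentile of all genes), NMRK2 (92.9th), CCL5 (92.0th) and VIL1 (91.7th) were high in PHC1 ChIP, while SPMAP1 (2.64th) and CMKLR2 (5.47th) were low. GAL3ST1 and SPMAP1, both dense in PHC1 clusters, had the highest and the lowest PHC1 ChIP scores of the 9. Their input reads were 17 and 30, while CCL5, high in PHC1 ChIP, had 27. The PHC1 column was not decoded to reads, so a difference in PHC1 reads themselves is not shown. PHC1-dFCS, named as lacking the FCS part, exceeded PHC1 in 7 of the 9 and in 79.4% of all genes, with a median difference of 0.208 in the 9 and 1.09 in all genes. VIL1 (1.35 in PHC1-dFCS and 2.15 in PHC1) and CCL5 (1.71 and 2.18) went the other way.

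**Figure D5:**
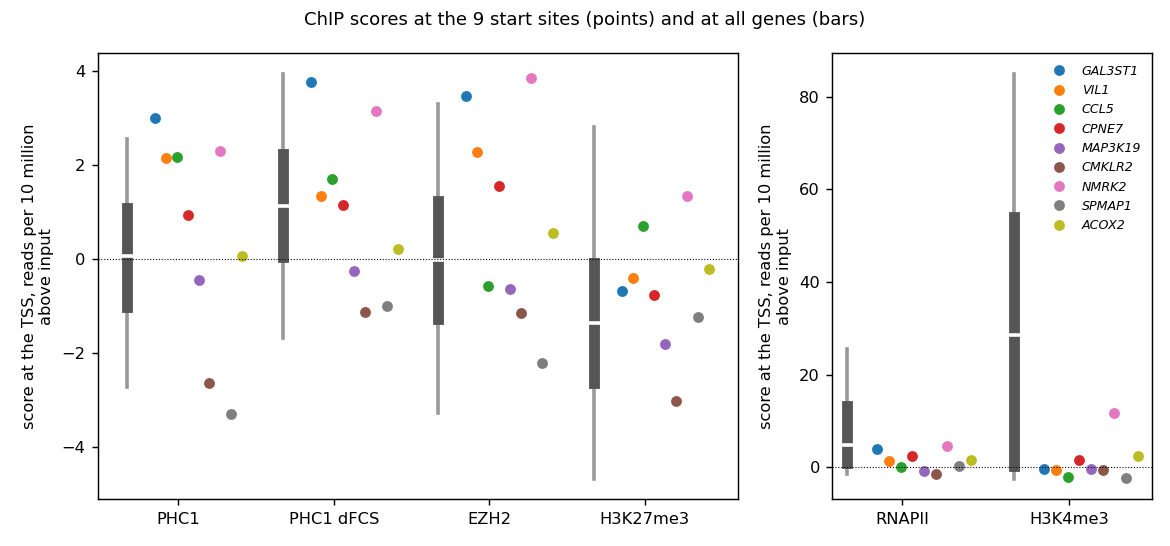
ChIP scores at the start sites of the 9 genes, in reads per 10M above input. Points are the 9 genes, thick bars the quartiles of all genes with the median in white, and thin bars the 5th to 95th percentiles. All 9 points lie below the all-gene median for RNAPII and H3K4me3, and NMRK2 is the highest of them for H3K4me3 at 11.6.

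NMRK2 had the highest H3K4me3 score of the 9 and SPMAP1 the lowest, and CMKLR2 had the lowest H3K27me3 and RNAPII scores. These are the 3 of the 9 with a single promoter in the table used, and their promoter sequences are shown. They are RefSeq promoters of GRCh38.p14, 250 bases before to 50 bases after the annotated start, with each CG dinucleotide in capitals, and they were matched by symbol, which 5 of the 9 genes allowed. The ChIP scores were read at hg19 start sites, which may be other starts of the same gene. NMRK2 lies at chr19:3933339-3933638 on the plus strand, SPMAP1 at chr17:38841389-38841688 on the minus strand and CMKLR2 at chr2:206213322-206213621 on the minus strand.
NMRK2: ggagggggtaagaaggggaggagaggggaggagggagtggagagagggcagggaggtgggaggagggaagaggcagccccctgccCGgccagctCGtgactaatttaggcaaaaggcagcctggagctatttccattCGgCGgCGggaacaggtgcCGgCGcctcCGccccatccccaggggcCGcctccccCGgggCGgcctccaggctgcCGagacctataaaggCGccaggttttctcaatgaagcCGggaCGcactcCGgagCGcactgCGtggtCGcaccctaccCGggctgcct
SPMAP1: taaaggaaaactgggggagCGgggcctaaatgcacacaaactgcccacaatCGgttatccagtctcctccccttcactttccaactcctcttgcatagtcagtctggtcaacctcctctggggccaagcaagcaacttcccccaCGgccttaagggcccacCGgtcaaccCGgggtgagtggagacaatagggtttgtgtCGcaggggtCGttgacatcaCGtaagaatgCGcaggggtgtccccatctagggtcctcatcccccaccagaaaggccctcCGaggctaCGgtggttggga
CMKLR2: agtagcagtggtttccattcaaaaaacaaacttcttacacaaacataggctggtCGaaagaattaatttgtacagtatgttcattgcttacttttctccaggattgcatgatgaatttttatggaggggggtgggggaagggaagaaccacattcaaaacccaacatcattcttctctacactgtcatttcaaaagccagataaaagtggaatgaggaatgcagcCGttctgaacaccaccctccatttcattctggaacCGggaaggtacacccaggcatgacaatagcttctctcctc
The NMRK2 promoter holds 20 CG dinucleotides, and 41.2% of the 35116 promoters of that length hold at least as many. The SPMAP1 promoter holds 11, which 54.7% reach, and the CMKLR2 promoter holds 3, which 81.8% reach. The median promoter holds 14. GAL3ST1 has 3 annotated promoters with 41, 4 and 2 CG dinucleotides, and its H3K4me3 score was -0.43, from 17 reads against 17 input reads. MAP3K19 has 2 with 0 and 4 and a score of -0.40. The count of a dinucleotide is a description of the sequence and of nothing bound to it.

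The genes whose levels over the 6 libraries lay nearest to the median profile of the 9, by Euclidean distance on the log2 scale, were BIN2 (0.904), RSPH6A (1.24), TEX101 (1.31), C19orf38 (1.42) and F2 (1.52). BIN2 had 68.1 and 120 per-million units in PHC1, 1.83 in RNAPII 4SU, 0 in 6SG, and 0.616 and 0.387 in nuclear RNA. F2, the gene of prothrombin, lies on the plus strand, and 90.3% of its PHC1 coverage lay on the minus strand. RSPH6A, on the minus strand, had 98.4% on its own strand, and so had TEX101, on the plus strand, with 97.7%. Opposite-strand and own-strand genes were thus both found among the nearest profiles. VIL1 was at a distance of 1.16 from the median profile and GAL3ST1 at 2.33.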

How the data were processed

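The members and all lists were chosen with earlier results of these data known, and no result here is independent support for them. Per the submitters' processing notes, all libraries were mapped to hg19, and the notes name Bowtie 0.12.7, SAMtools 0.1.19, TopHat2 2.0.11 and Bowtie2 2.2.3; the cluster caller, the read counter and its strand setting are not given in the sources used here. The deposited PAR-CLIP tables give the mean coverage signal of each cluster. The deposited RNA table gives counts per gene, and 1 further value column of it was not used. The score in each row of the deposited ChIP table is, by the authors' scaling, reads around a TSS per 10M less those of input, and the PHC1 and PHC1-dFCS columns pool 2 libraries each. For RNAPII, EZH2, H3K27me3, H3K4me3 and input these were decoded to whole reads (median 34, 20, 18, 146 and 22 at a TSS).

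Each cluster was given to the gene region holding its midpoint on either strand, and coverage times length was summed per gene. A single set of TMM factors turned these sums and the RNA counts into per-million values (edgeR 4.0.16) and compared with limma 3.58.1 (trend, robust, on log2 values after adding a pseudocount of 1) over genes with a value of at least 5 in 2 libraries, 2-sided, with Benjamini-Hochberg adjustment and a threshold of 0.05. The plan allowed edgeR's count test only for counts on both sides, and summed coverage is no count. The labels do not say that replicates came from separate cultures, so the p-values cover no more than the spread among these libraries, and that may be technical. A log2 fold after adding a pseudocount understates the change of low genes. Orientation came from the RefSeq promoter table and, for neighbours without an entry, from RNAPII 4SU clusters (at least 5, 90% on 1 strand, at least 1000 reads in each RNA library), which matched RefSeq in 99.2% of 5020 genes with both. Named are the 9 genes, their nearest neighbours within 50 kb and the upstream gene on the strand of the clusters, and the 5 nearest profiles; the other genes within 50 kb were counted only. Alternatives changed the scaling, pseudocount, filter, RNAPII control, cluster measure and window, and left out each replicate. A further gene of the HEK293 marker list is not reported here.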

Additional observations from a re-analysis of the deposited data

Results flagged for a closer look

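MAP3K19 held a signal in the RNAPII 6SG library, which none of the comparisons used as its main control. Its summed coverage there was 5718 on the plus strand, the strand of the PHC1 clusters and opposite to the gene, from 3 clusters with 135 covered bases at a mean coverage of 42.4. The RNAPII 4SU library had 0 on that strand of MAP3K19 and 535 on the gene's own strand. The 6SG clusters lay in a stretch of 36.3 kb within the gene, the first of them 40.5 kb past the nearest 6SG cluster before it. With 45259 clusters in all, the 6SG library was the shallowest of the 4, and the difference between the RNAPII libraries was not tested.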

How the results depend on the processing

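The median log2 fold of the 9 genes over nuclear RNA, 5.84, was 5.47 without TMM, 4.19 with a pseudocount of 5, 5.06 with the number of clusters and 1.20 on the gene's own strand alone. Over RNAPII 4SU the median of all 9, with 4 of them at 0 in 4SU, was 5.71; it was 5.46 without TMM, 4.15 with a pseudocount of 5, 5.93 without the largest cluster of each gene, 5.53 with the number of clusters, 6.04 with both RNAPII libraries, 6.69 with 6SG alone, 2.39 on the own strand, and 5.60 to 5.63 with a PHC1 replicate left out (values without a test). Without TMM the median of all tested genes moved to -0.72 over RNA and -0.16 over 4SU. On the own strand the folds over RNA were -0.22 for CCL5, -0.36 for NMRK2 and -0.49 for ACOX2, and MAP3K19 over 4SU was -0.035 there and -0.031 with 6SG alone. The count of 6 genes with opposite-strand clusters was 6 under every alternative run for it. Taking every region that holds the midpoint, or only clusters of mean coverage 5 or more, left each share as it was. Those alternatives therefore could not change the count. The 6 genes with an upstream gene were 5 within 20 kb and 7 within 100 kb.

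Over all genes, 3616 were higher and 4084 lower than nuclear RNA; with 1 replicate left out the lower count ran from 2525 (RNA replicate 2) and 2541 (RNA replicate 1) to 4752. Against RNAPII 4SU, 2779 were higher and 2294 lower. Limma called 0 higher and 0 lower with no low-value filter (2817 and 2343 of 12001 at an unadjusted p under 0.05) and 0 and 0 with both RNAPII libraries (1214 and 652 of 8550); 6SG alone gave 4445 higher. Of the tested neighbours, 5 higher and 2 lower became 0 and 0 with no filter (7 and 1 unadjusted) and with both RNAPII libraries (3 and 0 unadjusted), 8 and 1 without the largest cluster, 8 and 1 with the number of clusters, and 4 and 1 without TMM. Signs turned for LASP1 (-0.19 without TMM, -0.19 to 0.23 with a PHC1 replicate left out, -0.10 with both RNAPII libraries, -0.21 with 6SG alone), CWC25 (0.37) and PES1 (0.37) with the number of clusters, KCTD6 (0.32 with both, 2.57 with 6SG alone), RAB3GAP1 (-0.016 with both, -0.31 with 6SG alone) and USP37 (-0.066 with 6SG alone). The cause of these shifts was not tested. The replicate block, for PHC1 and RNA libraries with the same number, gave 3562 higher and 4076 lower and left the median at 5.84. The log2 difference between PHC1 replicates 1 and 2 correlated by 0.038 with that between RNA replicates 1 and 2, over 9354 genes. The replicate numbers thus gave no sign of a pairing.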

Other observations

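TNNT2, the cardiac troponin T gene of the striated muscle list, also had PHC1 coverage with almost no RNA: 19.8 and 21.8 per-million units in the PHC1 libraries and 0.0352 and 0.0168 per-million units in nuclear RNA. TNNT2, CKM and ALB were picked out after their values were seen. CKM of the same list had 14.4 and 9.40 per-million units in PHC1 and 0.422 and 0.387 in RNA, and ALB of the liver list had 7.71 and 5.85 in PHC1 and 0.0704 and 0.101 in RNA. APOA2, TTR and CYP3A4 of the liver list had 0 in both PHC1 libraries. So had CDH17 and KRT20 of the gut list, CD3E, NKG7 and GZMB of the T and NK cell list, and UMOD. ACTA1 of the muscle list had 8.78 and 0 per-million units in PHC1. Strand and neighbours are not given for these genes.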
